A study of Mus musculus with 8 samples.

Results

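Messenger RNA of 38 lysosomal genes was examined in epididymal white adipose tissue, an abdominal fat depot of male mice. The genes were chosen by name, with the cathepsins left out, and all 38 were among the 16505 genes of the deposited table and among the 13797 that were tested. They comprise 20 genes for proteins of the lysosomal lumen (enzymes, their activator proteins and progranulin), 7 for membrane proteins and 11 for subunits of the proton pump. The 8 libraries came from C57BL/6 mice on a high fat diet for 12 weeks, 4 of wild-type genotype (WT) and 4 labelled Mir181 double-knockout (called knockout here, DKO in the plots). Both groups ate the high fat diet, so no library shows lean tissue, and the labels name neither the deleted loci nor the age, litter or housing of the mice. The p-values therefore measure the spread between these samples.

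Lysosomes are acidic compartments in which enzymes take apart sugars, lipids, proteins and nucleic acids delivered by endocytosis, phagocytosis and autophagy. The acid is made by the vacuolar proton pump (V-ATPase), whose V1 part splits ATP in the cytosol and whose V0 part moves protons through the membrane. In obese fat, macrophages that gather around dying fat cells take up and degrade lipid in their lysosomes, while fat cells use lysosomes mainly for turnover of their own contents.

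Library totals ran from 3736881 to 76838584 reads, with knockout replicate 1 the shallowest and knockout replicate 2 the deepest. The WT libraries held 4081597 to 15410736 reads and knockout replicates 2 to 4 held 20336161 to 76838584. Depth thus went largely with genotype, with knockout replicate 1 the exception. Of the 38 genes, 37 had over 1000 reads in the 4 WT libraries together, and the fewest reads of any of these 37 in a single library was 71. The exception was Mcoln3 with 56 WT reads. Ribosomal RNA took over 1% of reads in WT replicates 1, 3 and 4 and knockout replicate 1, and under 1% in the other 4 libraries. Genes known from the epididymis, the organ beside this depot, held 1.59%, 2.76% and 1.32% of the reads of WT replicate 2 and knockout replicates 2 and 4, and under 1% in the other 5, called the epididymis-poor libraries here. Markers of fat cells such as Adipoq (adiponectin) were well measured in all 8 libraries, from 9.0 to 11.70 log2 CPM for Adipoq.

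Most lysosomal genes were lower in knockout fat. In limma 32 of the 38 fell and 2 rose at an adjusted p under 0.05, where 16.1% of all tested genes fell and 22.7% rose. At least 2-fold falls were found for 16 members, against 8.56% of all tested genes. The 4 knockout values lay below all 4 WT values for 29 members, against 16.6% of tested genes, and above them for 2, against 20.8%. The median change of the 38 was −0.79 on the log2 scale, or −0.96 relative to the median of all tested genes, which was 0.18. Together the 38 genes took 1.87% to 2.31% of reads in the WT libraries and 0.714% to 0.885% in the knockout libraries. Much of this sum came from 4 genes of lipid breakdown that include the abundant Psap. These took 0.788% to 1.06% in WT and 0.236% to 0.32% in knockout. Below, a change is the knockout mean minus the WT mean on the log2 scale, ± the SE that limma gives, and a level is in log2 CPM, which scales reads to the library total.

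**Figure D1:**
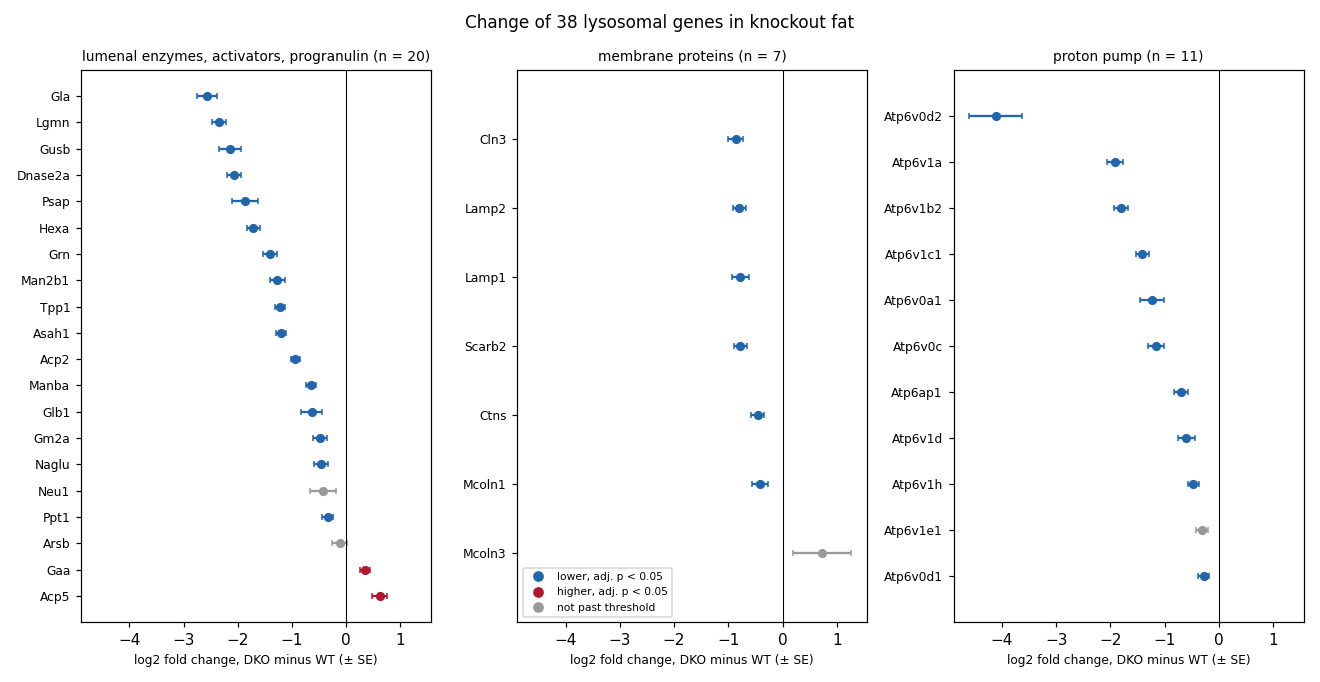
Change from WT to knockout (x axis, log2 scale) for each of the 38 genes (rows), with bars of ± SE from limma, in 3 panels by role. Blue points fell, red points rose and grey points did not pass the adjusted p of 0.05, with Atp6v0d2 at −4.12 far to the left and Gaa and Acp5 the only red points.

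Each role held a majority of falling genes, with different depths among the chosen genes. Of the 20 lumenal genes 16 fell and 2 rose, with a median of −1.07 and a range of −2.57 to 0.62. Of the 7 membrane proteins 6 fell, with a median of −0.78, and none of them reached a 2-fold change. Of the 11 pump subunits 10 fell, with a median of −1.16 and a range of −4.12 to −0.28. Relative to the median of all genes these medians were −1.25, −0.95 and −1.34. Falls of at least 2-fold were made by 10 lumenal genes, 0 membrane proteins and 6 pump subunits, counts of the limma calls that were not tested against each other. The range within the lumenal and pump genes was wider than the distance between the medians of the 3 roles.

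**Figure D2:**
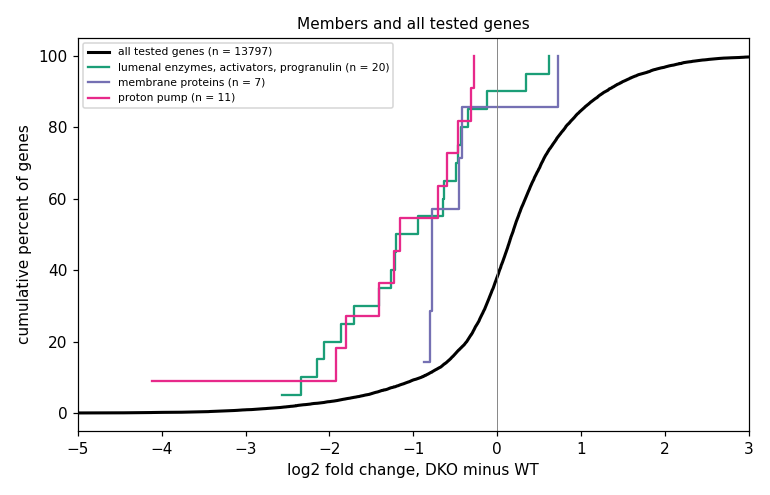
Cumulative percent of genes (y axis) at or below each change from WT to knockout (x axis, log2 scale), for all 13797 tested genes (black) and for the 20 lumenal, 7 membrane and 11 pump genes (colours). All 3 coloured lines run to the left of the black line over most of their height, and the membrane proteins rise steeply near their median of −0.78.

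Macrophage and fat cell markers moved with the genotype, while no epididymis marker was called. Of 17 tested macrophage markers 16 fell and 1 rose (the scavenger receptor Cd163), with a median of −2.25. They took 1.09% to 1.24% of reads in WT and 0.23% to 0.315% in knockout libraries, and none was at 0 in any library. Adgre1, the gene of the macrophage surface protein F4/80, changed by −2.90 ± 0.16. Of 12 fat cell markers 10 rose and 0 fell, with a median of 1.83 and 1.6% to 2.5% of reads in WT against 2.83% to 4.46% in knockout. Of 19 tested epididymis markers 0 passed in limma, 0 had an unadjusted p under 0.05 and 0 passed by voom, with every marker overlapping between the groups. The part of these shifts in the lysosomal changes was not tested. In RNA of whole tissue, fewer cells of a type and less RNA per cell cannot be told apart. Of the 38 lysosomal genes 3 fell by more than the macrophage median, namely Atp6v0d2, Gla and Lgmn.

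Among the 10 enzymes of sugar chains 7 fell and 1 rose (median −0.64). Gla, the alpha-galactosidase that is deficient in Fabry disease, stood at 6.18, 6.44, 6.36 and 6.60 log2 CPM in WT replicates 1 to 4. In knockout replicates 1 to 4 it stood at 4.26, 4.02, 3.42 and 3.61. The groups lay far apart, with knockout replicates 3 and 4 lowest, and the change was −2.57 ± 0.19 (limma adjusted p = 3.38e-05), a 5.94-fold lower level. Gusb, the beta-glucuronidase, had WT values of 8.94, 9.0, 8.96 and 9.27 and knockout values of 7.31, 7.20, 6.67 and 6.42. Its knockout libraries also spread more widely than its WT libraries, and it changed by −2.14 ± 0.20 (adjusted p = 9.51e-05).

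Hexa, the alpha subunit of beta-hexosaminidase and the gene of Tay-Sachs disease, was at 9.30, 9.38, 9.15 and 9.36 in WT and 7.79, 7.67, 7.51 and 7.35 in knockout, a change of −1.71 ± 0.12 with no overlap of the groups. The alpha-mannosidase Man2b1 changed by −1.27 ± 0.14, and its WT libraries differed by an SD of only 0.041. The beta-mannosidase Manba changed by −0.65 ± 0.096 and Naglu, which removes N-acetylglucosamine from heparan sulfate, by −0.47 ± 0.13. The groups overlapped for the beta-galactosidase Glb1, since knockout replicate 2 (6.35) lay above WT replicates 1 and 3 (6.24 and 6.32). Its change was −0.63 ± 0.19 (adjusted p = 0.0284) and lost the call without WT replicate 2 or 4 (−0.56 and −0.58) or without knockout replicate 1, 3 or 4 (−0.58, −0.52 and −0.63). Naglu lost its call without WT replicate 4 (−0.42, adjusted p = 0.0548) and in the epididymis-poor libraries (−0.50, adjusted p = 0.0515).

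Of the remaining sugar-chain enzymes 1 rose and 2 did not pass. Gaa, the acid alpha-glucosidase that breaks down glycogen in lysosomes, was at 7.07, 7.27, 7.10 and 7.14 in WT and 7.46, 7.53, 7.55 and 7.41 in knockout. Every knockout value lay above every WT value, though the change was small at 0.34 ± 0.087 (adjusted p = 0.0129). With each library centred on its median the Gaa change was 0.20 (adjusted p = 0.133), with voom on whole reads 0.21 (adjusted p = 0.126), and in the epididymis-poor libraries 0.41 (adjusted p = 0.068), so the call was lost in each. Neu1, the sialidase, differed by −0.43 ± 0.24 (adjusted p = 0.18), with the groups overlapping. It passed downward with median centring (−0.57), voom (−0.57) and ribosomal RNA class as a term (−0.75). Arsb, the arylsulfatase of dermatan sulfate, differed by −0.12 ± 0.14 (adjusted p = 0.523). Its exons share 48.2% of their bases with an antisense gene in GENCODE, so its counts are uncertain where strand was not used.

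All 4 genes of sphingolipid and lipid-modified protein breakdown fell (median −0.85). Psap, the precursor of the saposins that present sphingolipids to their enzymes, was at 12.95, 13.05, 12.78 and 13.24 in WT and 11.30, 11.38, 11.01 and 10.89 in knockout. No library overlapped between the groups, and the change was −1.86 ± 0.24 (adjusted p = 0.00048), a 3.64-fold lower level. Asah1, the acid ceramidase, changed by −1.21 ± 0.094 with SDs of 0.06 in WT and 0.11 in knockout. Gm2a, the activator protein for GM2 ganglioside, and Ppt1, which removes palmitate from proteins, changed by only −0.48 ± 0.12 and −0.34 ± 0.1. Gm2a lost its call in the epididymis-poor libraries (−0.50, adjusted p = 0.0565) and with ribosomal RNA class as a term (−0.42, adjusted p = 0.052). Ppt1 lost it in the epididymis-poor libraries (−0.36, adjusted p = 0.105), without WT replicate 2 or 4 (−0.30 and −0.32), and without knockout replicate 3 or 4 (both −0.32).

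The 6 genes of protein, DNA and phosphate ester breakdown, progranulin included, moved by larger amounts (median −1.32), with 5 lower and 1 higher. Lgmn, the asparaginyl endopeptidase legumain, was at 9.77, 9.92, 9.65 and 9.95 in WT and 7.60, 7.63, 7.52 and 7.17 in knockout, a change of −2.34 ± 0.13 (adjusted p = 1.34e-05) or 5.08-fold. Dnase2a, the acid nuclease that digests DNA of engulfed cells, was at 6.59, 6.86, 6.68 and 7.01 and 4.95, 4.71, 4.52 and 4.70, a change of −2.06 ± 0.13. Neither gene had overlapping groups, and without any 1 library their changes stayed within −2.40 to −2.24 and −2.14 to −1.99. The tripeptidyl peptidase Tpp1 changed by −1.22 ± 0.091 and the acid phosphatase Acp2 by −0.94 ± 0.084. Grn encodes progranulin, a secreted protein that also resides in lysosomes, and changed by −1.41 ± 0.12 from 10.06 ± 0.15 in WT (SD, n = 4) to 8.65 ± 0.097 in knockout.

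Acp5, the tartrate-resistant acid phosphatase known from osteoclasts and tissue macrophages, went against the other members of this group. It was at 7.11, 7.12, 7.49 and 7.35 in WT and 7.83, 7.71, 8.17 and 7.81 in knockout, so every knockout library was higher, and the change was 0.62 ± 0.13 (adjusted p = 0.00663). The change was 0.47 with median centring and 0.52 to 0.69 without any 1 library, past the threshold each time. Within each library, Acp5 minus Acp2 was −0.13 ± 0.22 in WT and 1.43 ± 0.23 in knockout (SD, n = 4). The 2 acid phosphatases thus shifted apart by 1.56, with no overlap between groups (two-sided exact permutation p = 0.0286, the smallest that 4 against 4 libraries can give, and 0.0571 adjusted over the 4 gene pairs compared in this way). With log2(CPM + 1) this shift was 1.55, and its exact permutation p was again the smallest possible (0.0381 adjusted). The adjusted p was lower there only because another of the 4 pairs, Mcoln3 minus Mcoln1, then also reached the smallest p.

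**Figure D3:**
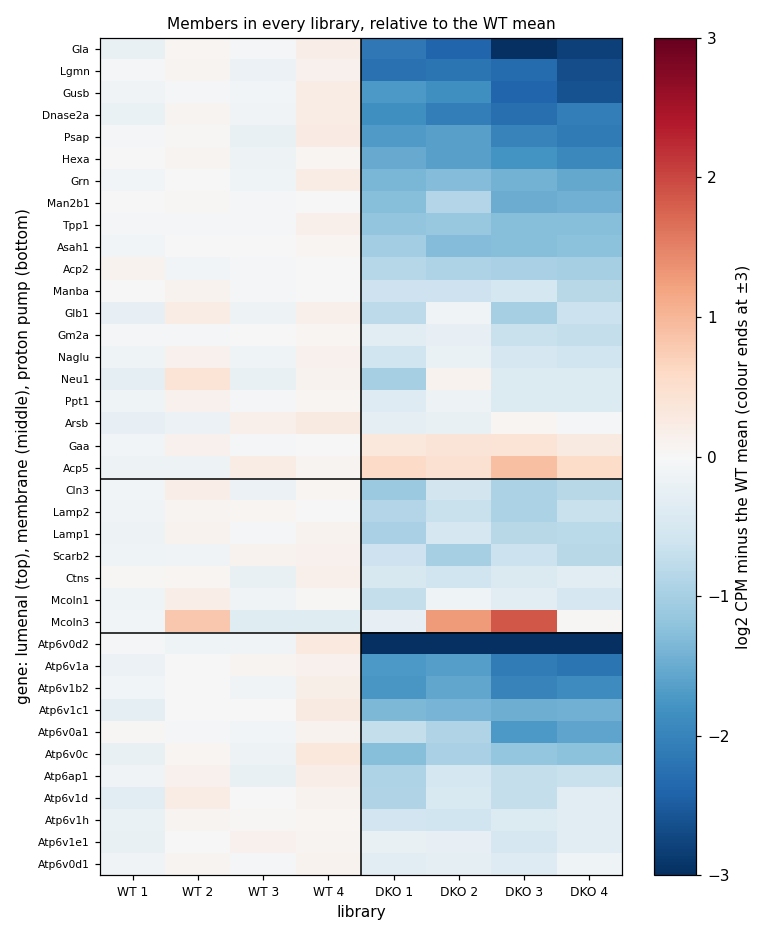
Log2 CPM minus the WT mean (colour, ending at ±3) for each of the 38 genes (rows, ordered by change within each role) in each of the 8 libraries (columns). The knockout columns are blue for most rows, while Gaa and Acp5 are red in all 4 knockout libraries and Mcoln3 is reddest in knockout replicate 3.

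Of the lysosomal membrane proteins 6 of 7 fell, with changes of −0.87 to −0.42. Lamp1 and Lamp2, the glycoproteins that coat the inner face of the membrane, changed by −0.78 ± 0.15 and −0.80 ± 0.11. Lamp1 was at 10.39, 10.64, 10.49 and 10.65 in WT and 9.57, 10.04, 9.71 and 9.74 in knockout. Lamp2 was at 9.16, 9.35, 9.33 and 9.26 and 8.38, 8.61, 8.32 and 8.60, and neither gene overlapped between groups. Lamp2 minus Lamp1 was −1.27 ± 0.094 in WT and −1.29 ± 0.14 in knockout, a shift of −0.019 that was within the spread of the libraries (two-sided exact permutation p = 0.83). Scarb2, the receptor that carries glucocerebrosidase to lysosomes, changed by −0.78 ± 0.12, and Cln3, the Batten disease membrane protein, by −0.87 ± 0.15. Ctns, the cystine exporter, changed by −0.46 ± 0.12, and lost its call in the epididymis-poor libraries (−0.44, adjusted p = 0.103).

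Of the mucolipin calcium channels 1 fell narrowly and 1 did not pass. Mcoln1, the widely expressed channel, was at 5.47, 5.80, 5.51 and 5.64 in WT and 4.89, 5.49, 5.28 and 5.11 in knockout. Knockout replicate 2 reached the lower WT values, and the change of −0.42 ± 0.14 only just passed (adjusted p = 0.0471). It lost the call without any 1 library except knockout replicate 2, at −0.51 to −0.31 over the 8 left-out libraries, with no filter on low values (adjusted p = 0.0523), with no variance trend (adjusted p = 0.0656) and in the epididymis-poor libraries (−0.46). Mcoln3 was at 0.43, 1.32, 0.14 and 0.15 in WT and 0.27, 1.78, 2.38 and 0.54 in knockout, values that rest on 56 WT and 484 knockout reads. The groups overlapped, with high values in WT replicate 2 and knockout replicates 2 and 3, which are 3 of the 4 deepest libraries, and the difference of 0.73 ± 0.54 did not pass (adjusted p = 0.307). Mcoln3 minus Mcoln1 shifted by 1.14 (two-sided exact permutation p = 0.0857, 0.114 adjusted over the 4 pairs). On the log2(CPM + 1) scale the shift was 0.93 and passed (exact permutation, adjusted p = 0.0381).

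The deepest fall of all 38 genes was in the proton pump. Atp6v0d2 is the isoform of the V0 subunit d known from osteoclasts, macrophages, kidney and epididymis, whereas Atp6v0d1 is made in most cells. Atp6v0d2 was at 9.28, 9.21, 9.26 and 9.65 log2 CPM in WT replicates 1 to 4. In the knockout it was at 6.32, 6.12, 4.33 and 4.14, with replicates 1 and 2 near 6 and replicates 3 and 4 near 4. The change was −4.12 ± 0.48 (adjusted p = 0.000288), a 17.4-fold lower level that left 5.76% of the WT level, and it was −4.48 to −3.75 without any 1 library. Within the ribosomal RNA classes it was −3.07 (3 WT, 1 knockout) and −4.34 (1 WT, 3 knockout). Atp6v0d1 was at 7.26, 7.46, 7.31 and 7.49 in WT and 7.05, 7.10, 7.0 and 7.26 in knockout. It fell by only 0.28 ± 0.098 (adjusted p = 0.0478). The lowest WT and the highest knockout value both round to 7.26, the knockout value being just lower.

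Within each library, Atp6v0d2 minus Atp6v0d1 was 1.97 ± 0.17 in WT and −1.87 ± 1.20 in knockout (SD, n = 4). The shift of −3.84 did not overlap between groups (two-sided exact permutation p = 0.0286, 0.0571 adjusted over the 4 pairs). With log2(CPM + 1) it was −3.80, and its exact permutation p was again the smallest possible (0.0381 adjusted). As for Acp5 minus Acp2, the adjusted p was lower there only because Mcoln3 minus Mcoln1 then also reached the smallest p. In the epididymis-poor libraries the shift was −3.73. The small Atp6v0d1 fall lost its call without any 1 library except knockout replicate 4 (−0.33 to −0.24 over the 8 left-out libraries), with no filter, no variance trend, the ribosomal RNA class as a term, and in the epididymis-poor libraries (adjusted p = 0.0546, 0.076, 0.058 and 0.138).

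**Figure D4:**
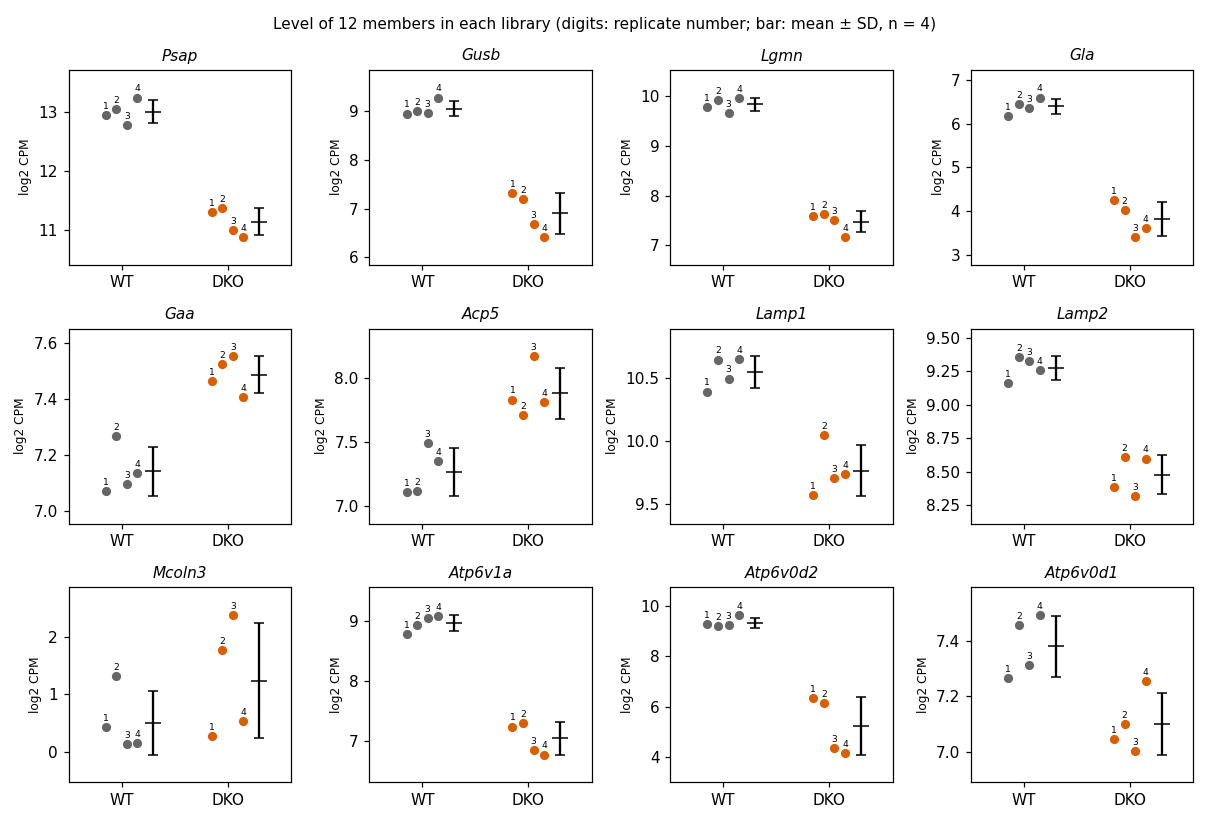
Log2 CPM (y axis, a separate scale in each panel) of 12 genes in each library (points with replicate numbers), for 4 WT (grey) and 4 knockout (orange) libraries, with the mean and SD beside them. The groups stand far apart for Atp6v0d2, Gla and Lgmn, in the opposite direction for Gaa and Acp5, and overlap for Mcoln3.

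The other V0 members fell by amounts between the d isoforms. Atp6v0a1, an isoform of the large membrane subunit, was at 8.93, 8.85, 8.82 and 9.0 in WT and 8.18, 8.0, 7.18 and 7.31 in knockout, a change of −1.23 ± 0.22. As for Atp6v0d2, its knockout replicates 1 and 2 stood above replicates 3 and 4, and its SD rose from 0.082 in WT to 0.50 in knockout. Within the libraries with more ribosomal RNA (3 WT, 1 knockout) the Atp6v0a1 difference was −0.74, and within those with less (1 WT, 3 knockout) it was −1.35. Atp6v0c, the proteolipid of the rotating ring, changed by −1.16 ± 0.14. It has pseudogenes in the mouse genome, so its counts are uncertain.

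In the V1 part, the subunits that bind ATP fell most. Atp6v1a, the catalytic subunit A, was at 8.77, 8.93, 9.04 and 9.07 in WT and 7.24, 7.30, 6.85 and 6.77 in knockout, a change of −1.92 ± 0.15 (adjusted p = 3.71e-05). Atp6v1b2, the B subunit of most tissues, was at 9.14, 9.21, 9.11 and 9.38 and 7.47, 7.65, 7.20 and 7.32, a change of −1.80 ± 0.12 (adjusted p = 2.68e-05). Both fell more than 3-fold with no overlap. Atp6v1c1, another V1 subunit, changed by −1.41 ± 0.12. The remaining V1 members and Atp6ap1, an accessory protein of V0 assembly, moved less. Atp6v1d changed by −0.60 ± 0.16 with overlapping groups, the regulatory subunit Atp6v1h by −0.47 ± 0.11 and Atp6ap1 by −0.71 ± 0.13. Atp6v1e1 differed by −0.32 ± 0.11 and just missed the threshold (adjusted p = 0.051). Atp6v1e1 passed downward without WT replicate 1 (−0.39) or knockout replicate 1 (−0.35) and with median centring (−0.46), quantile normalization (−0.32), voom (−0.44), array weights (−0.38) or log2(CPM + 1) (−0.31). Atp6v1d lost its call without WT replicate 4 (−0.56, adjusted p = 0.0522) and Atp6v1h in the epididymis-poor libraries (−0.46, adjusted p = 0.0562).

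The pump has further subunits and isoforms that were listed separately. Of 11 tested, 5 fell and 2 rose (median −0.55), the rises being 18.2% of the list against 22.7% of all tested genes. Tcirg1, the a3 isoform of osteoclasts and macrophages, changed by −2.31 ± 0.12 (adjusted p = 1.17e-05). The accessory protein Atp6ap2, which is also the prorenin receptor, and the proteolipid subunit Atp6v0b changed by −1.15 ± 0.098 and −0.86 ± 0.12. The 2 that rose were Atp6v0e2, an isoform of the small V0 subunit e, from 3.87 ± 0.52 to 6.09 ± 0.11 (change 2.22 ± 0.23, adjusted p = 0.000168), and Atp6v0a4, the a4 isoform of kidney and epididymis. Atp6v0a4 was at 0.88, 1.36, 1.37 and 0.15 in WT and 1.35, 2.47, 3.17 and 2.76 in knockout, with WT replicates 2 and 3 and knockout replicate 1 close together, and changed by 1.50 ± 0.45 (adjusted p = 0.0262). These are low levels, and the WT values lay close to the filter at 0 log2 CPM. Atp6v0a4 lost its call in the epididymis-poor libraries (1.46, adjusted p = 0.109) and with ribosomal RNA class as a term (1.0, adjusted p = 0.0901). The call was also lost without WT replicate 1 or 4 (1.48 and 1.23) or knockout replicate 2, 3 or 4 (1.49, 1.25 and 1.39).

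In 2 isoforms of acid-secreting epithelia nearly all reads came from the libraries with over 1% epididymis reads. These isoforms, Atp6v1b1 and Atp6v1g3, known from kidney and epididymis and chosen after their values were seen, lay under the filter on low values. Atp6v1b1 had 24, 262 and 4 reads in WT replicate 2 and knockout replicates 2 and 4, and 0 reads in the epididymis-poor libraries together. Atp6v1g3 had 80, 738 and 24 reads in those 3 libraries and 1 read in the epididymis-poor libraries. Atp6v0a4 differed from them, with its highest value (3.17) in knockout replicate 3, an epididymis-poor library. Atp6v0d2 did not follow this split either, since WT replicate 2 (9.21) was the lowest WT library and its change in the epididymis-poor libraries was −4.07 (adjusted p = 0.000353).

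**Figure D5:**
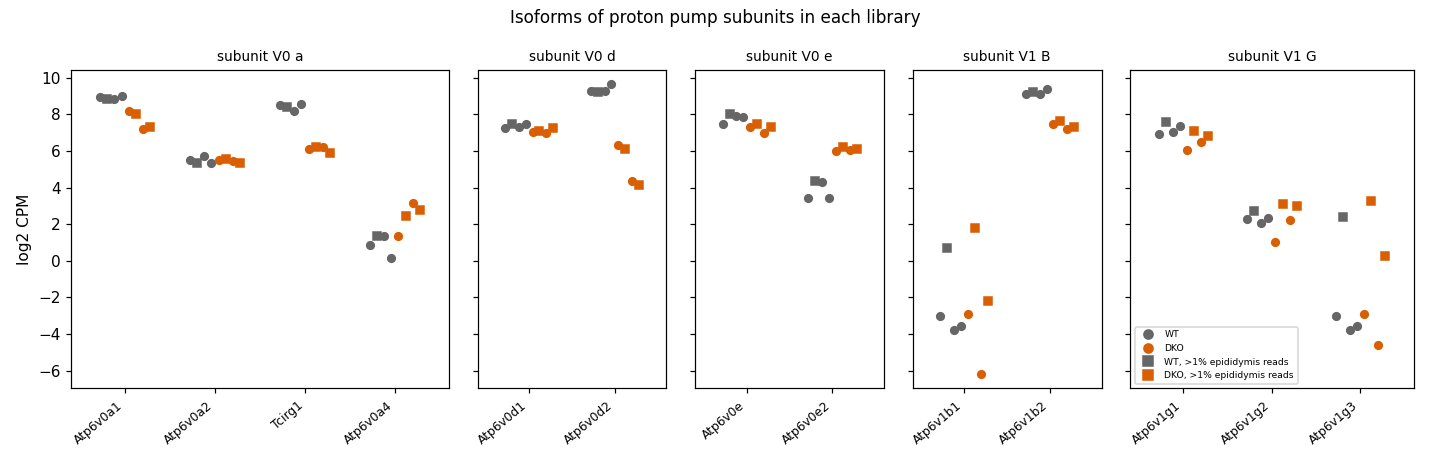
Log2 CPM (y axis) of isoforms of 5 proton pump subunits in each library, WT grey and knockout orange, with squares for the libraries with over 1% epididymis reads and circles for the others. Atp6v0d2 and Tcirg1 are lower and Atp6v0e2 is higher in every knockout library, while Atp6v1b1 and Atp6v1g3 are high only among the squares.

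Lysosomal genes outside the 38 moved in the same main direction. Of 39 other enzymes, transporters and membrane proteins 25 fell and 2 rose, with a median of −0.63. By role, 12 of 20 enzymes and 13 of 19 transporters and membrane proteins fell, with medians of −0.64 and −0.62. Falls of at least 2-fold were made by 7 genes of each role, against 8.56% of all tested genes. The lack of such falls among the membrane members thus did not extend to these other membrane genes. The galactosylceramidase Galc changed by −1.70 ± 0.085, the phagosomal metal transporter Slc11a1 by −2.80 ± 0.18, the leukocyte lysosomal protein Laptm5 by −2.20 ± 0.16 and the cholesterol exporter Npc1 by −1.50 ± 0.11. The 2 that rose were Smpd1, the acid sphingomyelinase, by 0.56 ± 0.11, and Laptm4b, a relative of Laptm5, by 1.05 ± 0.14.

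Among 15 genes of transcription factors and nutrient signalling at the lysosome 9 fell and none rose. The factors of the MiT family bind the DNA motif CACGTG in promoters of lysosomal genes. Of them Mitf changed by −1.75 ± 0.16 and Tfec by −2.26 ± 0.29. Tfeb and Tfe3, named after their values were seen, changed by −1.14 ± 0.18 and −0.60 ± 0.13, with Tfeb at 5.24, 5.16, 4.93 and 5.14 in WT and 3.44, 4.12, 4.27 and 4.07 in knockout. Fnip2, a partner of folliculin, changed by −2.48 ± 0.15. Of 9 genes that tag or sort lysosomal enzymes 4 fell and 2 rose, the rises being 22.2% of the list, near the 22.7% of all tested genes. Igf2r, the large mannose-6-phosphate receptor, changed by −1.55 ± 0.15. Sort1, the sorting receptor sortilin, rose by 1.23 ± 0.22 with no overlap. The adaptor Gga2 rose by 0.58 ± 0.20 and only just passed, with overlapping groups (adjusted p = 0.0463). It lost the call in the epididymis-poor libraries (0.34, adjusted p = 0.193), with voom (0.42, adjusted p = 0.0565), with ribosomal RNA class as a term (0.31, adjusted p = 0.155), with no filter (adjusted p = 0.051) and with no variance trend (adjusted p = 0.0667). Leaving out any 1 library except WT replicate 2 or knockout replicate 1 ended it as well (0.45 to 0.76 over the 8 left-out libraries).

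The promoters of the members were searched for this motif as a description. The motif is known from promoters of lysosomal genes, so its share in a list of such genes says nothing about their changes. RefSeq (GRCm38.p6, not the mm9 build of the reads) gave 41 windows for 33 of the 38 genes. Each ran from 250 bases before to 50 bases after an annotated start, and a gene counted if any of its windows matched. The 5 without a window were Asah1, Atp6v0d2, Atp6v1b2, Atp6v1c1 and Atp6v1h. The hexamer CACGTG, which reads the same on both strands, occurred in 10 of the 33 (30.3%), against 8.09% of 27025 genes with such windows and 11.4% of the 10396 that were also tested here. The longer TCACGTGA, which contains it, occurred in 5 members (15.2%) against 1.12% and 2.01%. The longest form, the 10-base CLEAR element, occurred in 1 member, Cln3 (3.03%), against 0.37% and 0.741%. The 10 genes with CACGTG were Atp6v0d1, Atp6v1a, Cln3, Gaa, Gla, Glb1, Lamp1, Lgmn, Mcoln1 and Naglu, of which 9 fell and Gaa rose, with a median change of −0.71. Of these, Cln3 and Lgmn each have another annotated start whose window holds no match. The 23 with a window and no match had a median of −0.78, and 18 of them fell. A match is a description of the sequence, and binding was not measured.

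The 4 windows with more than 1 match are shown because they hold the densest motif content among the members. Capitals mark CACGTG, letters run 5′ to 3′ on the strand of the gene, and Lamp1 holds 4 matches within 61 bases of its start.
Lamp1 (chr8:13158911-13159210, plus strand): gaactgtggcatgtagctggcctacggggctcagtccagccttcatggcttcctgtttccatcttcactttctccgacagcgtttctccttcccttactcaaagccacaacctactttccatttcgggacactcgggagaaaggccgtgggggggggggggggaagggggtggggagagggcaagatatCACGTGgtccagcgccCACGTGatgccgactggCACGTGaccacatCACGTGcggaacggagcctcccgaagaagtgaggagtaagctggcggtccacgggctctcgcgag
Mcoln1 (chr8:3500269-3500568, plus strand): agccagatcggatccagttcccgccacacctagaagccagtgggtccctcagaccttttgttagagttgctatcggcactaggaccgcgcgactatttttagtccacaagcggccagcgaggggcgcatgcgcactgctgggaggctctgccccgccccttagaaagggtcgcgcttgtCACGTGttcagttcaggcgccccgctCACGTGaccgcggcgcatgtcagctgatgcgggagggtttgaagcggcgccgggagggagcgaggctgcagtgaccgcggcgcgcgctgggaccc
Cln3 (chr7:126583187-126583486, minus strand): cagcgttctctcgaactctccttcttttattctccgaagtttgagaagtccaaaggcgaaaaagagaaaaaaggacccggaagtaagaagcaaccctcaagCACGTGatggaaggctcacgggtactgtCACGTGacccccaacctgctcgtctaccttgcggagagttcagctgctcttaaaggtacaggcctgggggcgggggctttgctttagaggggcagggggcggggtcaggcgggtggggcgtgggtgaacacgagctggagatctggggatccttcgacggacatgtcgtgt
Gla (chrX:134600956-134601255, minus strand): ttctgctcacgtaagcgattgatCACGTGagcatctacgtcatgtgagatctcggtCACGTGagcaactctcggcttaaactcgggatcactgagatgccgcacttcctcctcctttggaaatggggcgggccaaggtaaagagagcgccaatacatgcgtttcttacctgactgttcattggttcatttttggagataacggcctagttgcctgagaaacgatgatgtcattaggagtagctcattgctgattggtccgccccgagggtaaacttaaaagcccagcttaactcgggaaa

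The number of matches can be set beside the change of each gene. Lamp1, with 4 matches, changed by −0.78 ± 0.15, Cln3 and Mcoln1, with 2 matches each, by −0.87 ± 0.15 and −0.42 ± 0.14, and Gla, also with 2, by −2.57 ± 0.19. In Mcoln1 the matches began 71 and 45 bases before the annotated start, in Cln3 149 and 121 bases, and in Gla 227 and 194 bases.

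The miR-181 family, named in the genotype, was compared with the members through its seed, the part of a microRNA (bases 2 to 8) that pairs with target messages. RefSeq (GRCm38.p6) lists 4 mature miR-181 5p forms, shown with the seed in capitals because all 4 share it.
miR-181a-5p: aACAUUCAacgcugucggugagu
miR-181b-5p: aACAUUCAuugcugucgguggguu
miR-181c-5p: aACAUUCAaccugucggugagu
miR-181d-5p: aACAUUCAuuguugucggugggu
The matching site TGAATGT occurred in the longest GENCODE release M21 3′ UTR of 5 of the 38 members (13.2%), against 18.4% of 12855 tested genes with a UTR. The site-bearing genes are shown with the site in capitals.
Psap: gaggggaaacttgTGAATGTaac
Atp6v1a: ttatctgaagtggTGAATGTagt
Tpp1: tggaattaagcaaTGAATGTtag
Manba: cagctgaggggccTGAATGTtgt
Cln3: atatatgtatttaTGAATGTata
All 5 fell, where 32 of all 38 members fell. Their changes were −1.86 ± 0.24, −1.92 ± 0.15, −1.22 ± 0.091, −0.65 ± 0.096 and −0.87 ± 0.15 in the order shown. Neither Gaa nor Acp5, the members that rose, holds the site, but most members lack it. Whether the site bears on these changes was not tested. The miR-181 transcripts themselves were not analysed here.

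Library by library the members shifted as a set. The median of the 38 genes relative to their WT means was −0.91, −0.64, −0.96 and −0.82 in knockout replicates 1 to 4, and −0.11, 0.058, −0.064 and 0.11 in the WT replicates. Every knockout library was thus well below every WT library, and on this scale knockout replicate 2 was nearest to WT. The medians of all tested genes also differed, at −0.017, 0.195, 0.193 and 0.283 in knockout replicates 1 to 4. The order among the knockout libraries therefore depends on the scaling. The SD was larger in knockout than in WT for 27 of the 38 genes (71.1%), near the 68.3% of all tested genes. For the macrophage markers the same medians in the knockout were −1.84, −2.24, −2.18 and −2.45. Within the ribosomal RNA classes the median difference of the 38 genes was −0.87 (3 WT, 1 knockout) and −0.83 (1 WT, 3 knockout), and all 32 falling genes were lower in both. In the epididymis-poor libraries 25 of the 32 kept their call and none was added, with 13 lumenal, 4 membrane and 8 pump genes lower, in a comparison of 3 WT with 2 knockout libraries.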

How the data were processed

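Per the labels' protocols, polyA RNA was made into stranded libraries and read as single ends. The submitters' processing notes name Trimmomatic, TopHat2, featureCounts, limma and the build mm9. The sources used here give neither versions nor a strand setting for counting. The authors deposited voom log2 CPM values, 1 column per sample, matched here by title. The values step in whole reads (100% within 0.01 read, 0.5 read added), which gave the library totals. Fold changes rest on this log2 scale.

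Genes averaging 0 log2 CPM or more over the 8 libraries were tested with limma 3.58.1 in R 4.3.3 (lmFit, eBayes with a mean-variance trend, group as the only term, two-sided, Benjamini-Hochberg over all 13797 genes, threshold 0.05). Gene pairs were compared by exact permutation over all 70 splits. The members and lists were chosen with earlier results of these data known. All 38 members are named. Of other lists, up to 4 called genes with the smallest p and up to 4 called against the majority are named. The fit was tested on simulated reads with 200 changed genes and the same spread for all genes. It called 90% of the 2-fold and 100% of the 4-fold changes, with 4 false calls. The simulated reads had none of the library differences seen here, so these rates do not carry over to the real libraries. Added after seeing the data were voom on whole reads with median-ratio size factors, the epididymis-poor libraries (5 libraries) and a term for ribosomal RNA content (over or under 1% of reads). Plots used matplotlib 3.10.9.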

Additional observations from a re-analysis of the deposited data

Results flagged for a closer look

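In 4 of 76 groups of 4 libraries (38 genes, WT and knockout), 1 library stood apart from the other 3 by more than Dixon's 95% critical value, where chance gives about 5% of groups. WT replicate 4 was highest for Gusb (9.27 log2 CPM), Tpp1 (8.64) and Atp6v0d2 (9.65). Knockout replicate 2 was highest for Ppt1 (6.95). Without WT replicate 4 the changes were −2.07 for Gusb, −1.17 for Tpp1 and −4.02 for Atp6v0d2, and without knockout replicate 2 the Ppt1 change was −0.40. All 4 stayed past the threshold there.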

How the results depend on the processing

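Of the 34 members called, 24 kept their direction and call under all 19 alternatives, 10 lost the call in at least 1 and none reversed. The count of members that rose, 2 in the main comparison, was 1 with median centring, with voom on whole reads and in the epididymis-poor libraries. The count that fell ran from 26 to 31 with 1 library left out, and was 34 with median centring, 33 with quantile normalization, 31 with the ribosomal RNA class as a term and 25 in the epididymis-poor libraries. Of all genes called, 58.6% rose in the main comparison, against 46.4% after median centring, 48.2% after quantile normalization and 44.9% by voom. With log2(CPM + 1) the shifts of Atp6v0d2 minus Atp6v0d1, Acp5 minus Acp2 and Mcoln3 minus Mcoln1 were −3.80, 1.55 and 0.93, each passing by exact permutation (adjusted p = 0.0381). Of these, only Mcoln3 minus Mcoln1 changed its unadjusted p, and the others had the smallest possible p on both scales. The shift of Lamp2 minus Lamp1 ran from −0.067 to 0.031 with 1 library left out, so its direction was not fixed, and the same holds for the osteoclast marker Itgb3 (from −0.78 to 0.035, the positive value without knockout replicate 2).

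The replicate numbers were also used as a replicate block. Same-numbered libraries correlated in their deviations from the group means at 0.36, 0.79, 0.24 and −0.36, and 2 of 8 libraries correlated best with their own number. No consistent pairing by number was thus seen. WT and knockout replicate 2, the pair at 0.79, both held over 1% epididymis reads and under 1% ribosomal RNA. With the block 32 members fell and 2 rose, with Neu1 added (−0.43) and Atp6v0d1 lost (adjusted p = 0.0537). Depth limits Mcoln3, with 4 reads in its lowest library.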

Other observations

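Osteoclasts, the bone-resorbing cells of the macrophage lineage, secrete acid through the same pump, and their markers were examined beside Acp5 and Atp6v0d2. Of 5 tested markers 3 fell and none rose. The protease Ctsk changed by −3.73 ± 0.20, the fusion protein gene Dcstamp by −3.64 ± 0.49 and Tnfrsf11a, the receptor for RANK ligand, by −2.21 ± 0.16. Nfatc1, a transcription factor also active in many other cells, differed by −0.16 ± 0.12 (limma adjusted p = 0.308), and the integrin gene Itgb3 by −0.24 ± 0.49 (adjusted p = 0.713), neither past the threshold. The Itgb3 difference ran from −0.78 to 0.035 with 1 library left out, and passed downward without knockout replicate 4 (adjusted p = 0.0486). Acp5, another osteoclast marker and a lysosomal member here, rose by 0.62 ± 0.13.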
